A study of Mus musculus with 4 samples.

Results

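Cycling macrophages are human cells that carried macrophage transcripts together with transcripts of proliferation in MDA-MB-231 breast tumors grown in humanized mice. A cell entered this set when it had at least 5 UMIs (unique transcript molecules) over the macrophage genes CD68, MSR1, CD163, C1QA, C1QB and C1QC, at least 3 UMIs over TOP2A and MKI67, at most 1 UMI over CD3D, CD3G and TRAC, no UMI of NCR1 or KLRF1, and at most 2 UMIs over KRT18 and KRT19. Before that, barcodes were kept with more than 600 and up to 6000 detected genes, a mitochondrial share of UMIs under the limit of the study (median 4.23% in the cells found) and at least 60% of their hashtag UMIs from 1 hashtag. In this way 1089 cells were found among 7537 macrophages, 16327 kept cells and 42702 barcodes. The non-cycling macrophages used for comparison were the 5384 cells that met the same rule with no UMI of TOP2A or MKI67, and the remaining 1064 macrophages had 1 or 2 such UMIs.

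Cell suspensions of the tumors were labelled with hashtag antibodies, 1 per mouse, and live human CD45+ cells were sorted from them and run in 2 droplet reactions. All 14 mice were of the MISTRG strain, in which the cytokines M-CSF, GM-CSF and IL-3 are made from human genes so that human myeloid cells can grow, and all were irradiated as newborns, engrafted with human fetal liver CD34+ stem cells and injected with MDA-MB-231 cells, a triple-negative breast carcinoma line, in the mammary fat pad. The 7 untreated mice received no drug, and the 7 maraviroc mice received the drug maraviroc in their drinking water during the last part of tumor growth. Reaction 1 held 4 untreated and 3 maraviroc mice, and reaction 2 held 3 untreated and 4 maraviroc mice. Treatment was read from the hashtag names, not from the sample labels. The sample labels name the mouse as organism, while the counts are of human genes. The tumors came from 1 cell line, the mice carry human cytokine genes, and the number of stem cell donors is not stated in the sources used here.

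Macrophages of tumors come from blood monocytes that settle and differentiate and, in part, from division of macrophages within the tissue. Entry into S phase, when DNA is copied, needs the replication machinery and deoxynucleotides, and the ordered destruction of cyclins and other proteins carries the cell through mitosis and cytokinesis. Colony-stimulating factors acting through CSF1R and the GM-CSF receptor are the classic growth signals of this lineage.

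The number of cycling macrophages per mouse ranged from 49 to 123 with a median of 69, with 499 cells in reaction 1 and 590 in reaction 2. Reaction 1 held 133089612 UMIs over 29120 barcodes and reaction 2 held 175447534 over 13582. Of the 27645 barcodes of reaction 1 within the gene and mitochondrial limits, 7361 were kept by the hashtag limit, against 8966 of 10161 in reaction 2. The cycling macrophages had a median of 9486 UMIs in reaction 1 and 17211 in reaction 2, against 6662 and 13165 in non-cycling macrophages. In each of the 14 mice the cycling cells were the deeper class, by 1.13 to 1.91 times with a median of 1.38. Summed over a mouse, they gave between 642381 and 2070726 UMIs (median 995485.5), and all levels below are counts per 1000000 UMIs of such a sum (CPM). At this depth 3 UMIs corresponded to 1.45 to 4.67 CPM, and levels near that are uncertain. The reactions shared 136 barcodes, which included 9 of the cycling macrophages.

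The markers bore out the name of the cells. TOP2A, the topoisomerase that untangles chromosomes (ENSG00000131747), stood at 304, 425 and 750 CPM in the lowest, median and highest mouse. MKI67, which coats mitotic chromosomes (ENSG00000148773), stood at 428, 492 and 634 CPM. Both chose the cells, whereas ASPM and ANLN did not enter the rule. ASPM, a protein of the spindle poles, measured 171 ± 42.8 CPM (SD, n = 14 mice), with a lowest mouse of 92.2, a median of 160 and a highest mouse of 248, and 1.98 ± 1.25 CPM in non-cycling macrophages. ANLN, the scaffold of the contractile ring, measured 126 ± 29.1 CPM, with a range of 96.7 to 184, against 2.82 ± 0.81. The ranges of cycling and non-cycling macrophages did not overlap for either gene. C1QA, a chain of complement C1q and part of the rule, stood at 1680 ± 298 CPM against 1388 ± 262 in non-cycling macrophages. The monocyte and macrophage receptor CD14, which the rule did not use, stood at 1260 ± 186 against 1277 ± 244 CPM.

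The T cell, NK cell and carcinoma cell lists were led by genes that macrophages also express. The 14 genes of the T cell list summed to 485 ± 64.1 CPM in cycling and 481 ± 38.1 CPM in non-cycling macrophages, and CD4, which human macrophages express, made up 262 of the former. The NK cell list of 12 genes summed to 833 ± 370 against 821 ± 194 CPM, of which FCGR3A, also a macrophage gene, gave 533 CPM, with NCR1 and KLRF1 at 0 by the rule. GNLY, a granule protein of cytotoxic lymphocytes that macrophages do not share, ranged from 14.5 to 864 CPM among mice, and the NK cell list summed to 1904 CPM in its highest mouse. In the carcinoma cell list of 11 genes VIM, which macrophages also express, gave 2325 of 3408 CPM. The B cell list of 7 genes summed to 46.6 CPM against 68.8 in non-cycling macrophages, led by BANK1 at 37.8. With the upper gene limit at 8000 in place of 6000 it summed to 129 against 71.9 CPM, since 1 maraviroc mouse stood at 1167 CPM, of which IGHM, the heavy chain of IgM, gave 1115, and without that mouse it was 48.8. The conventional dendritic cell list of 12 summed to 73.1 CPM, led by CD1C at 21.9. The mast cell list of 7 ranged from 0 to 131 CPM among mice with a median of 1.80 and a mean of 20.6, which was 12.1 without the highest mouse, and was led by TPSAB1 at 7.14. The erythroid and progenitor list of 11 summed to 2.26 CPM, led by AZU1 at 1.43, with 5 genes at 0. The plasmacytoid dendritic cell list of 7 genes summed to 505 CPM, of which the broadly expressed TCF4 gave 309. A C1QA UMI was seen in 36.2% of T cells of reaction 1 and 23.3% of reaction 2 at median depths of 6552 and 7784 UMIs, against 98.0% and 99.3% of cycling macrophages, and 18.3% and 9.404% of these T cells had 5 or more UMIs over the 6 macrophage genes. Free RNA and pairs of a T cell with a macrophage could both give such UMIs, and their parts were not tested. Doublets were held down only by the hashtag limit, the upper gene limit and the lymphoid and keratin limits of the rule. Pairs of cells from the same mouse cannot be told apart from single cells by hashtags.

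The thresholds passed through cells rather than between groups of cells. At 2 UMIs of TOP2A and MKI67, just outside the rule, there were 141 macrophages in reaction 1 and 144 in reaction 2, and at 3 UMIs, just inside, 85 and 62. At 5 UMIs or more there were 344 and 478. The macrophage side was clearer, with 15 and 3 cycling cells at 4 macrophage UMIs, 8 and 1 at 5, and 460 and 583 at 10 or more. The upper gene limit removed cycling cells more than others. Of macrophages above 6000 genes, 65.3% of 118 cells in reaction 1 and 65.6% of 381 in reaction 2 had at least 3 UMIs of TOP2A and MKI67, against 14.1% and 14.8% of kept macrophages.

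Cycling and non-cycling macrophages of the same mouse were compared gene by gene as the log2 ratio of CPM + 10, averaged over the 14 mice. Since TOP2A and MKI67 chose the cells, these ratios describe the cells and were not tested. Of 7205 genes at a mean of 20 CPM or more in either class, 294 (4.08%) had a mean log2 ratio of 1 or more and were higher in cycling macrophages in every mouse, and 60 (0.833%) had a mean ratio of -1 or less and were lower in every mouse. Genes that met either description are said below to pass it. Most cell cycle genes reached 20 CPM in cycling macrophages alone, where they are high, so that the counts and medians of their lists describe the genes that reached it and rest in part on that limit. At any size, 16.2% of the genes were higher and 8.16% lower in every mouse, and the median over the 7205 genes was 0.07. Leaving aside the rule genes, the 10 highest ratios with the same sign in every mouse belonged to CENPF, ASPM, TPX2, RRM2, NUSAP1, CDK1, HIST1H4C, ANLN, HMMR and BIRC5.

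The replication machinery was high in cycling macrophages. Of 41 DNA replication genes 33 reached 20 CPM, 8 of them also in non-cycling cells, and 25 of the 33 and 4 of the 8 passed the description as higher. The median of the 33 was 1.42, and the 8 genes below 20 CPM had ratios of 0.57 to 1.25. PCNA, the clamp that holds DNA polymerases on their template, stood at 75.6, 128 and 201 CPM in the lowest, median and highest mouse, against a highest non-cycling value of 30.5, a log2 ratio of 2.25 ± 0.44 (SD, n = 14). CLSPN, which relays the replication checkpoint, had the highest ratio of this list, 2.62 ± 0.35. MCM7, a subunit of the replicative helicase, measured 75.8 ± 16.5 against 9.88 ± 3.398 CPM. The replication genes of cycling macrophages thus occupied ranges that non-cycling cells of no mouse reached for PCNA and MCM7, whose highest non-cycling value was 18.5 CPM.

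Genes that supply and package the new DNA followed. Of 12 nucleotide synthesis genes 9 reached 20 CPM, of which 8 passed as higher, with a median of 2.10. In non-cycling cells 4 of the 9 reached 20 CPM too, and 3 of those 4 passed. The 3 genes below 20 CPM (CAD, CTPS1 and UMPS) had ratios of 0.40 to 0.56. RRM2, the regulated subunit of ribonucleotide reductase, ranged from 110 to 228 CPM with a median of 193, whereas in non-cycling cells it ranged from 2.22 to 7.63. Thymidylate synthase TYMS (log2 ratio 3.29), thymidine kinase TK1 (2.92) and the dUTPase DUT (2.32) came next. Of 12 homologous recombination genes, which repair broken forks, 9 reached 20 CPM, 8 of them in cycling cells alone. These 9 passed as higher, led by RAD51AP1 (2.52), FANCI (2.26), BRIP1 (2.21) and BRCA1 (74.4 against 10.8 CPM). EXO1, RMI2 and XRCC2, which stayed below 20 CPM, had ratios of 0.82 to 1.31. Of 69 replication histone genes 23 reached 20 CPM, and 19 of these passed as higher, with a median of 1.65. In non-cycling cells 7 of the 23 reached 20 CPM too, and 5 of those 7 passed. The 46 histone genes below 20 CPM had ratios of -0.01 to 1.13. HIST1H4C, a histone H4 gene, ranged from 348 to 1166 CPM with a median of 595, and its non-cycling range ended at 75.2. Replication histone mRNAs end without a poly(A) tail in the main, and the libraries were primed on poly(A), so histone levels here are of the captured part.

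Mitotic genes were high as well. All 37 genes of the spindle and kinetochore list, 19 of 21 mitotic kinase and checkpoint genes, all 10 cytokinesis genes and all 15 chromosome structure genes outside the rule reached 20 CPM and passed as higher, with medians of 2.47, 2.29, 2.29 and 2.34. Of these, 5, 2, 0 and 6 genes reached 20 CPM in non-cycling cells too. The kinase list members below that level, PBK and ESPL1, had ratios of 0.55 and 1.078. CENPF, a kinetochore protein of late G2, had the highest ratio of the genes outside the rule, 4.52 ± 0.24, with 280, 407 and 506 CPM in the lowest, median and highest mouse and at most 14.5 CPM in non-cycling cells. TPX2, an activator of Aurora A on spindle microtubules, measured 179 ± 34.2 against 3.47 ± 1.24 CPM. Other spindle genes with high ratios were NUSAP1 (3.60) and HMMR (3.38). Among kinases and checkpoint genes, BIRC5 (survivin, 3.36), the separase inhibitor PTTG1 (3.30), the ubiquitin-conjugating enzyme UBE2C (3.19) and AURKB (2.79) led. CEP55 (3.32), PRC1 (3.22) and CIT (2.97) led after ANLN in cytokinesis. In chromosome structure outside the rule, the condensin subunit NCAPG (3.06) led. HMGB2 (2.90), the condensin subunit SMC4 (2.67) and the cohesin protector SGO2 (2.52) came next.

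Cell cycle regulators were mixed. Of 19 cyclins and CDKs 16 reached 20 CPM, and 11 of these passed the description as higher. The 16 had a median of 1.61 and a lowest ratio of -0.77, and 1 was lower in every mouse. In non-cycling cells 5 of the 16 reached 20 CPM too, and 1 of those 5 passed. CDK1, the kinase that starts mitosis, stood at 88.4, 146 and 237 CPM in the lowest, median and highest mouse against 2.90 to 7.07 CPM, and CCNB1, its cyclin, at 88.5 ± 25.2 against 2.64 ± 1.06 CPM. CKS1B (2.70) and CCNA2 (2.73) were the other leading members. Of 15 transcription factors 8 reached 20 CPM and 4 passed, namely HMGB2 (2.90), MYBL2 (2.38), FOXM1 (2.35) and E2F8 (1.56). In non-cycling cells 4 of the 8 reached 20 CPM too, and 1 of those passed. Of 14 inhibitors and brakes 2 were high, CDKN2C, which encodes the CDK4 and CDK6 inhibitor p18 (49.7 ± 14.3 against 3.52 ± 1.67 CPM), and the pocket protein RBL1 (1.40). CDKN1A, which encodes p21, was the other way round at 66.0 ± 13.3 against 96.6 ± 13.3 CPM, lower in 13 of 14 mice, and the antiproliferative gene BTG1 had a ratio of -0.59, lower in 13 of 14. Ribosome biogenesis and nuclear transport genes had a median of 0.72 with 4 of 14 passing, KPNA2 (1.90), LMNB1 (1.83), LMNB2 (1.32) and RANBP1 (1.21).

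**Figure D1:**
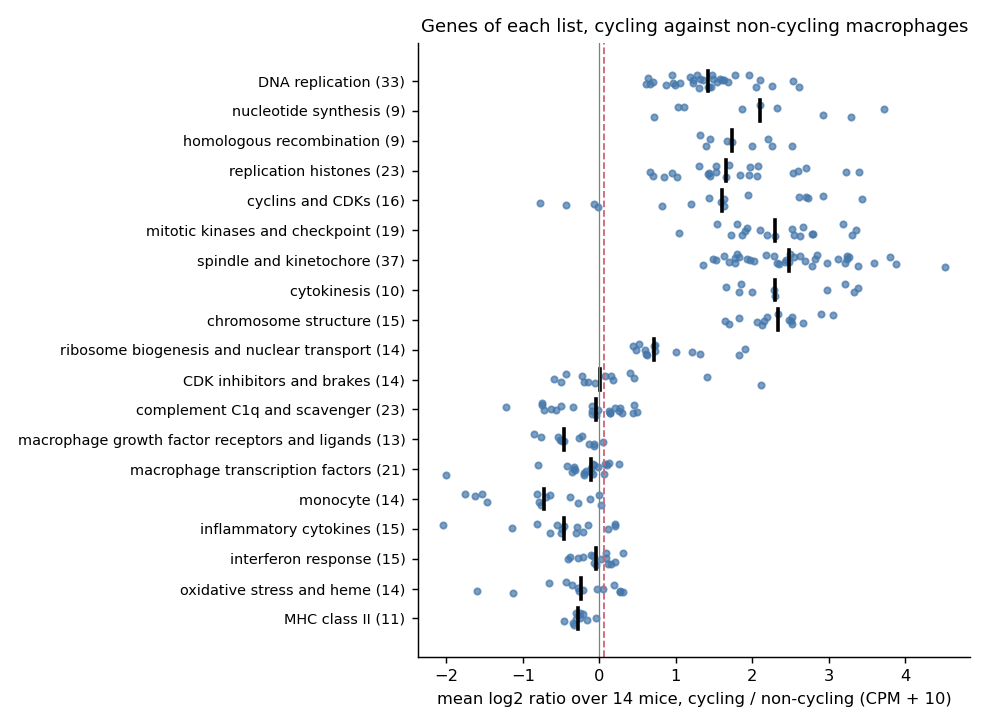
Log2 ratio of CPM + 10 in cycling over non-cycling macrophages for each gene at 20 CPM or more (points, mean of 14 mice), by gene list, with the number of genes in brackets (the complement list with its rule genes), the list median as a black bar and the median of all genes (0.07) as a red dashed line. The spindle, mitotic kinase, cytokinesis and chromosome structure lists lie above 1 throughout, whereas the complement and macrophage transcription factor lists have medians near 0, the growth factor receptor list a median of -0.46 and the monocyte list a median of -0.73.

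Macrophage identity genes differed far less. Of 18 complement and scavenger genes outside the rule, none passed as higher and 1 passed as lower, with a median of -0.07. That gene was CD36, a scavenger receptor, at 71.9 ± 47.7 against 159 ± 35.3 CPM. SPP1, which encodes osteopontin, was among the most abundant transcripts of these cells. In cycling macrophages it ranged from 8354 to 18085 CPM with a median of 10656 and a mean of 11858. Its mean in non-cycling macrophages was 10263 ± 4381 CPM, and it was higher in cycling macrophages of 10 of 14 mice. TREM2, a lipid receptor of tumor macrophages, stood at 75.4 ± 32.8 against 67.4 ± 30.5 CPM and was higher in 9 of 14. The ranges of both genes overlapped broadly. C1QB, a rule gene, was higher in 14 of 14 mice (log2 ratio 0.50), whereas CD68, a lysosomal protein and also a rule gene, was lower in 14 of 14 (304 ± 48.0 against 395 ± 47.6 CPM). The mannose receptor MRC1 was lower in 14 of 14 as well, at a log2 ratio of -0.35.

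Growth factor receptors were not higher in the dividing cells. Of 13 genes of that list none passed in either direction, the median was -0.46, and the summed level was 1342 ± 115 against 1727 ± 116 CPM, lower in 14 of 14 mice. CSF1R, the M-CSF receptor, ranged from 229 to 301 CPM with a median of 272 in cycling macrophages and from 221 to 292 CPM with a median of 264 in non-cycling macrophages, so that the 2 classes overlapped almost fully. The receptors for the other human cytokines of the strain were lower in every mouse, with log2 ratios of -0.86 for IL3RA, -0.54 for the shared beta chain CSF2RB and -0.51 for the GM-CSF receptor chain CSF2RA. CSF3R, the G-CSF receptor, had a ratio of -0.76. Among 21 macrophage transcription factors 1 passed the description, PPARG, a lipid-activated nuclear receptor that GM-CSF induces in alveolar macrophages. PPARG stood at 8.70, 17.9 and 35.3 CPM in the lowest, median and highest mouse against 60.4, 102 and 143 CPM in non-cycling macrophages, and the ranges did not overlap.

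Monocyte and inflammatory genes lay on the low side. Of 14 monocyte genes 4 passed as lower, S100A8 (mean log2 ratio -1.75), VCAN (-1.62), S100A12 (-1.53) and FCN1 (-1.46), and the list summed to 6072 ± 1247 against 9918 ± 1266 CPM. S100A8, a calcium-binding alarmin of monocytes and neutrophils, stood at 122, 380 and 786 CPM in the lowest, median and highest mouse against 644, 1288 and 1560 CPM. Of 15 inflammatory genes 2 passed, EREG and IL1B. EREG, a ligand of the EGF receptor, stood at 4.67, 49.5 and 151 CPM against 104, 210 and 348 CPM, and IL1B at 103, 223 and 907 CPM against 277, 489 and 1339 CPM. Both were lower in 14 of 14 mice, and the ranges of the classes overlapped. With the upper gene limit at 8000 their ratios were -1.49 and -0.95, each was higher in 1 of 14 mice, and neither passed. CXCL8 (-0.81) and NFKBIA (-0.65) were lower in 14 of 14 mice as well.

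Among 14 oxidative stress and heme genes 1 passed the description, FTH1, the ferritin heavy chain. It stood at 2688, 4301 and 6747 CPM in the lowest, median and highest mouse against 7029, 9154 and 13257 CPM in non-cycling macrophages, and the highest cycling value lay below the lowest non-cycling value. FTL, the light chain (-0.44), was lower in 14 of 14 mice, and HMOX1, heme oxygenase (-0.66), in 13 of 14. The cystine transporter SLC7A11 had a ratio of -1.60 but was lower in 13 of 14 mice, and its cycling level of 3.93 ± 6.28 CPM, against 34.4 ± 22.7, was near the level of 3 UMIs. Hypoxia and glycolysis genes had a median of 0.04 with none of 15 passing, and interferon response genes a median of -0.04 with none of 15. MHC class II genes had a median of -0.27, and their sum was 13068 ± 2049 against 15160 ± 2245 CPM, lower in 12 of 14 mice. None of 12 immediate early genes passed, with a median of 0.01.

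The 10 lowest ratios with the same sign in every mouse were those of AQP9 (-2.23), EREG (-2.04), PPARG (-1.998), PID1 (-1.94), ALDH1A2 (-1.90), CD52 (-1.85), S100A8 (-1.75), CD300E (-1.72), ITGAX (-1.68) and TIMP1 (-1.68). AQP9 is a glycerol and water channel of myeloid cells, ALDH1A2 makes retinoic acid, CD300E is a receptor of monocytes and TIMP1 inhibits metalloproteases. ITGAX, the integrin chain CD11c, stood at 29.9, 62.9 and 120 CPM in the lowest, median and highest mouse against 150, 227 and 276 CPM.

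The macrophage level of the compared cells moved with these low genes. Cycling macrophages had a median of 58 UMIs over the 6 macrophage genes, at a median depth of 14680 UMIs, against 30 at 10865 in non-cycling macrophages, and per mouse the 6 genes summed to 4984 against 4153 CPM, higher in 11 of 14 mice. When both classes were limited to cells in which these genes gave at least 0.3% of UMIs, a setting chosen after seeing the data, 816 cycling and 3181 non-cycling cells remained, and the number of lower genes went from 60 to 14 while that of higher genes went from 294 to 297. The 6 genes then summed to 6126 against 6616 CPM, higher in cycling macrophages of 1 of 14 mice. In that setting none of 11 monocyte genes passed, S100A8 had a ratio of -0.23 (lower in 8 of 14 mice) and C1QB one of 0.04 (higher in 8 of 14). ITGAX (-1.23), EREG (-1.05), PPARG (-0.99), FTH1 (-0.94), GPNMB (-0.91), HMOX1 (-0.85) and TIMP1 (-0.84) were lower in 14 of 14 mice, and IL1B (-0.65) in 12 of 14. GPNMB, a glycoprotein of lipid-laden macrophages, stood at 104 against 205 CPM there, whereas without the limit it had a ratio of -0.51 and was lower in 12 of 14 mice. CSF2RA (-0.47) was lower in 14 of 14 mice, and CSF1R (-0.05) in 9 of 14.

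**Figure D2:**
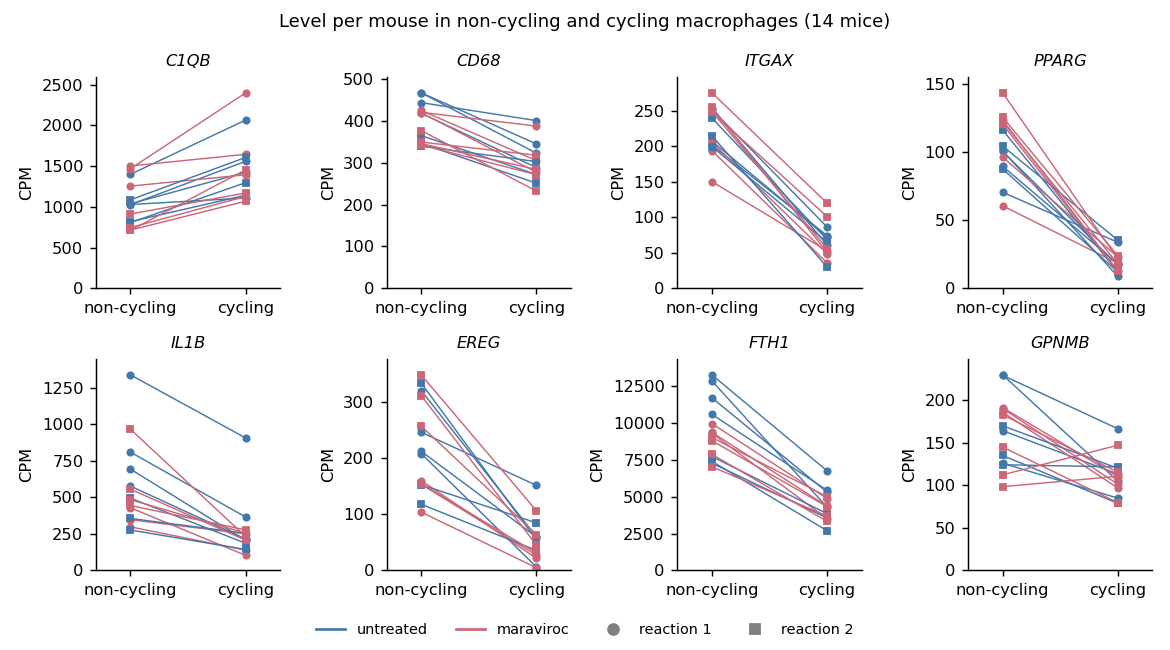
Level in CPM of 8 genes in non-cycling and cycling macrophages of each mouse, joined by a line, with untreated mice in blue, maraviroc mice in red, reaction 1 as circles and reaction 2 as squares. C1QB was higher in cycling macrophages of 14 of 14 mice, whereas CD68, ITGAX, PPARG, IL1B, EREG and FTH1 were lower in 14 of 14 and GPNMB in 12 of 14.

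Genes that mark macrophage states in these tumors were seen in cycling cells too. Each cell was thinned to 3000 UMIs, which kept 1047 cycling and 4851 non-cycling macrophages. At that depth SPP1 was detected in 90.7% of cycling and 76.9% of non-cycling macrophages (98.2% and 94.2% without thinning), and in 39.4% of non-cycling lymphocytes, which should lack it and were limited to cells with at most 4 macrophage UMIs, so that their shares understate the macrophage RNA that lymphocytes carry. TREM2 was detected in 19.1% and 16.1% (46.7% and 33.5% without thinning) against 0.131% of lymphocytes. CXCL10, an interferon-induced chemokine, was found in 22.5% and 18.8% (34.3% and 27.6%) against 2.66%. FOLR2, the folate receptor of resident-type macrophages, was found in 47.7% and 39.9% (80.6% and 63.8%) against 1.27%. LYVE1, another gene of resident-type macrophages, was rare and went the other way, at 2.58% and 3.65% (4.59% and 6.05%) against 0.262%. IL1B was detected in 24.8% of cycling and 39.2% of non-cycling cells (44.2% and 53.1%), against 4.41% of lymphocytes, and S100A12 in 2.10% and 7.77% (6.80% and 15.6%), against 1.09%. SLC2A1, a glucose transporter, was at 4.01% and 5.24% (12.03% and 13.35%), against 5.20% in lymphocytes, which use this transporter as well. At that depth 42 cycling and 533 non-cycling macrophages were too shallow to enter.

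Phase was described by the UMIs of 40 S phase and 51 G2M genes without TOP2A and MKI67. G2M UMIs led in 809 of 1089 cells, 74.3% (95% exact binomial interval 71.6% to 76.9%), S UMIs led in 271, 24.9% (22.3% to 27.6%), and 9 cells were equal. These are ranges of a score rather than types, and 226 cells had between 40% and 60% of these UMIs from the S phase list. The rule favours G2M, when TOP2A and MKI67 peak, and their median sum was 5 UMIs in cells led by S and 10 in cells led by G2M. S led in 19.4% of cells of reaction 1 and 29.5% of reaction 2, which was deeper. The intervals cover counting error only.

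Genes outside the phase lists were set side by side in these classes, again with no test. Of 7245 genes, 90 (1.24%) were higher in S-led cells in every mouse and 112 (1.55%) were lower. Of 19 DNA replication genes outside the lists, 13 were higher in S-led cells in every mouse, with a median log2 ratio of 0.98 against -0.05 over the 7245 genes. E2F1, which turns on S phase genes, measured 38.7 ± 11.03 CPM in S-led and 4.05 ± 2.30 CPM in G2M-led cells, and MCM10, which starts the helicase, 59.9 ± 14.99 and 10.8 ± 4.37 CPM. Cyclin E1, the G1/S cyclin encoded by CCNE1, stood at 20.6 ± 12.1 and 4.13 ± 3.97 CPM, and BRCA1 at 137 ± 40.2 and 49.4 ± 15.7 CPM. In the other direction, CCNB1 measured 10.4 ± 7.43 against 118 ± 31.1 CPM, PTTG1 35.6 ± 14.9 against 263 ± 35.5 CPM, and PLK1, a kinase of mitotic entry, 6.21 ± 4.94 against 75.2 ± 14.4 CPM. CCNA2, cyclin A2, which acts in both S and G2, differed less, at a log2 ratio of -0.82. Of 7 cytokinesis genes outside the lists, 5 were lower in S-led cells in every mouse.

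Histone genes did not go with the replication genes. Of 25 replication histone genes, 12 were lower in S-led cells in every mouse and none was higher, and their summed level was 1296 CPM in S-led and 2962 CPM in G2M-led cells, lower in 14 of 14 mice. HIST1H4C stood at 372 ± 162 against 774 ± 350 CPM, lower in 12 of 14 mice. Of the macrophage lists, complement and scavenger genes had a median of 0.03, monocyte genes of 0.04 and MHC class II genes of 0.06. The 6 macrophage genes of the rule had a median of 0.18 and summed to 5599.5 CPM in S-led and 4793 CPM in G2M-led cells, higher in 11 of 14 mice, and interferon response genes had a median of -0.52 and a sum that was higher in S-led cells of 3 of 14 mice. C1QA was higher in S-led cells of 8 of 14 mice and SPP1 in 7 of 14.

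**Figure D3:**
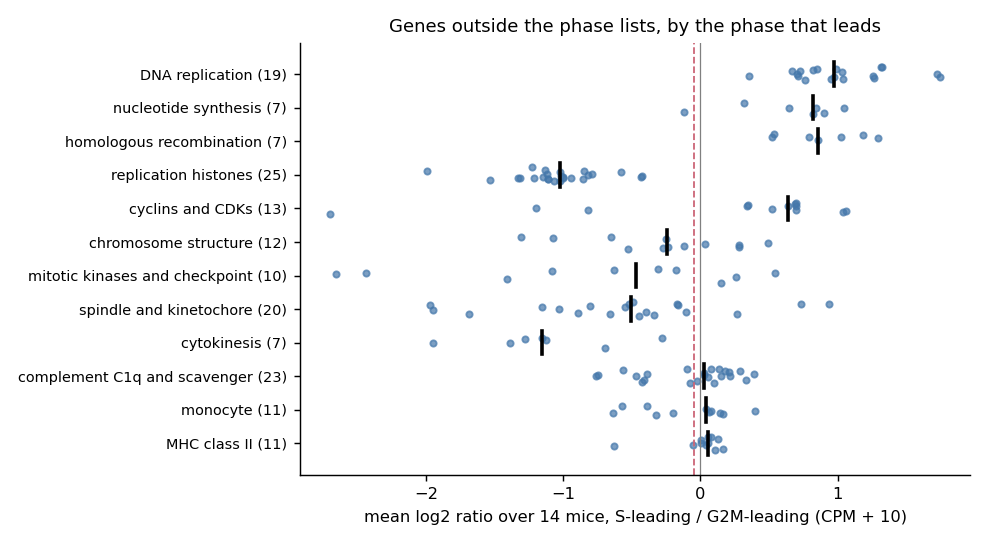
Log2 ratio of CPM + 10 in S-led over G2M-led cycling macrophages for genes outside the phase lists (points, mean of 14 mice), by gene list, with list medians as black bars and the median of all genes (-0.05) as a red dashed line. DNA replication genes lie above 0 (median 0.98), cytokinesis and histone genes below (medians -1.16 and -1.02), and the complement, monocyte and MHC class II lists have medians near 0.

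Cycling lymphocytes of the same mice, 816 cells with lymphoid UMIs and at most 4 macrophage UMIs chosen by the same TOP2A and MKI67 threshold, were set beside them. The S part of the phase UMIs ranged from 26.3% to 39.0% with a median of 32.2% in cycling macrophages and from 26.1% to 37.4% with a median of 30.7% in cycling lymphocytes, and it was higher in macrophages in 8 of 14 mice. The ranges overlapped almost fully. Replication histones summed to 1643, 2139 and 3626 CPM in the lowest, median and highest mouse in cycling macrophages and to 4974, 7104 and 10344 CPM in cycling lymphocytes, and the ranges did not overlap. In non-cycling cells the mean sum of these histones was higher in lymphocytes too, at 1027 CPM against 422 CPM in macrophages. The number of cycling lymphocytes per mouse was 16 to 125. Free RNA in the reactions and the other depths of the 2 cell types were not taken out of this description, and their part in it was not tested.

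Maraviroc had not been used to choose the cells, so treatment was tested over mice. The share of macrophages that cycled was 11.3%, 14.8% and 18.8% in the lowest, median and highest of 7 untreated mice and 9.74%, 13.1% and 19.7% in 7 maraviroc mice. The groups overlapped, with both the lowest and the highest mouse in the maraviroc group. Means were 14.99% ± 2.52 and 14.03% ± 3.52 (SD, n = 7), a difference of -0.96 percentage points (two-sided exact permutation test, p = 0.559, 3432 arrangements). The 95% interval, from the shifts that the test did not reject, was -4.52 to 2.68 points. The difference was 1.31 points in reaction 1 (p = 0.457) and -3.47 points in reaction 2 (p = 0.257), in exact permutation tests with 35 arrangements, of which the smallest possible p was 0.0286. Cells with any UMI of the T and NK cell lists other than CD4 and FCGR3A were then left out. Of the cycling macrophages 143 remained, 1 to 22 per mouse, and the difference turned to 3.29 points (exact permutation p = 0.201). It was 5.21 points (exact permutation p = 0.00991) when the maraviroc mouse with 1 such cell, the lowest in share, was left out as well, a setting chosen after seeing the data. Thinned to 3000 UMIs the shares were 8.85% ± 2.44 and 8.22% ± 3.67 (exact permutation p = 0.706), and of all kept cells, cycling macrophages were 7.26% ± 2.30 and 6.27% ± 1.45 (p = 0.372, exact permutation test).

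The S part of the phase UMIs was 26.3%, 32.3% and 39.0% in the lowest, median and highest untreated mouse and 27.4%, 28.8% and 37.3% in maraviroc mice. The means of 32.9% ± 4.02 and 31.5% ± 4.24 differed by -1.36 points (two-sided exact permutation test, n = 7 in each group, p = 0.543, interval -6.17 to 3.55). Within reaction 1 the difference was -4.43 points (exact permutation p = 0.257) and within reaction 2 it was 0.69 points (exact permutation p = 0.743). Without cells that held any UMI of the T and NK cell lists other than CD4 and FCGR3A, the S part differed by -11.9 points. That setting left 2 untreated and 4 maraviroc mice with at least 10 cycling cells (exact permutation p = 0.0667, the smallest possible there). With the cells chosen by the rule, neither the share nor the S part had a treatment difference larger than the spread between mice. Their intervals leave room for several points in either direction.

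**Figure D4:**
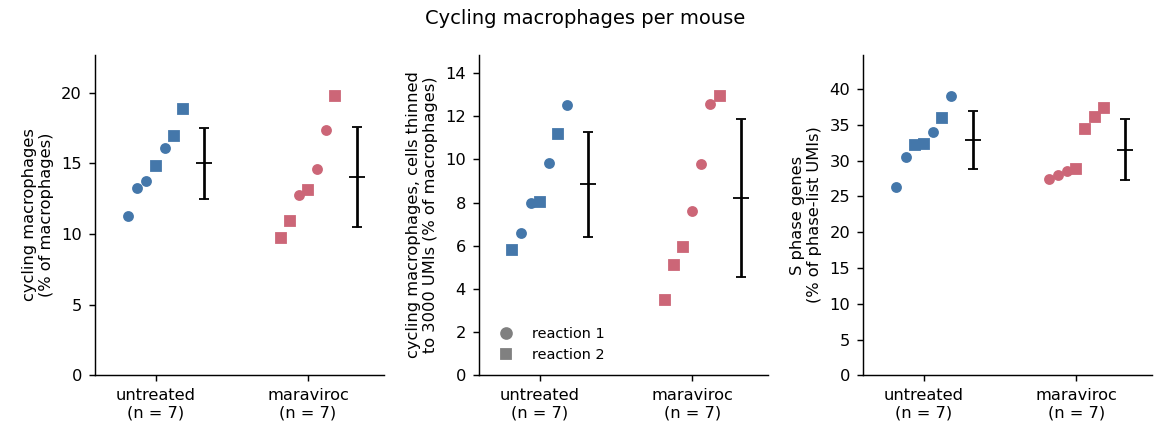
Cycling macrophages per mouse in untreated (blue) and maraviroc (red) groups as percent of macrophages, as percent of macrophages after thinning to 3000 UMIs, and the S part of the phase UMIs in percent; circles are reaction 1, squares reaction 2, and bars show mean ± SD of 7 mice. The groups overlap in each panel, with means of 14.99% and 14.03% in the left panel.

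Gene levels in cycling macrophages were compared between treatments with edgeR over 8942 genes. No gene passed an adjusted p of 0.05 (0 genes, 0%), the lowest adjusted p was 0.466, and 301 genes (3.37%) had an unadjusted p under 0.05, of which 176 were higher and 125 lower with maraviroc. DESeq2 called 1 gene. On counts simulated for this comparison, with 8787 genes tested, edgeR found 84.5% of 200 genes changed by a log2 of 1. In that simulation 200 genes changed together, which eases the adjusted threshold for each of them. A change in only a few genes, smaller changes and a difference between the reactions were not simulated. The share found therefore does not say what was within reach for a single gene here. Adding the reaction as a block left 0 genes called and 355 at an unadjusted p under 0.05. Reaction 1 alone and reaction 2 alone gave 0 called genes each, with 584 and 593 at an unadjusted p under 0.05, and the interaction of reaction and treatment also gave 0, with 798.

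TPRG1 (ENSG00000188001) had the lowest p. It measured 82.3, 127 and 191 normalized CPM in the lowest, median and highest untreated mouse and 29.7, 43.6 and 99.1 in maraviroc mice, a log2 fold change of -1.21 (SE 0.24, edgeR adjusted p = 0.466). The maraviroc mice lay below the untreated median in 7 of 7 cases, and the ranges overlapped. DESeq2 gave TPRG1 an adjusted p of 0.0155, and edgeR gave 0.0459 without 1 maraviroc mouse and 0.00216 when genes of any count were tested, so that its call depended on the setting. With the upper gene limit at 8000 its log2 fold change was -0.81 and it was not called. The other genes with the lowest p that were lower with maraviroc were NUDT3, a diphosphoinositol phosphohydrolase (44.4 ± 11.5 against 28.6 ± 2.02 CPM), the zinc finger gene MYNN, and the noncoding HCG18 and LINC02345, with an edgeR adjusted p of 0.999 for each.

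Among genes with the lowest p that were higher with maraviroc were the clock gene PER3 (22.7 ± 3.99 against 34.9 ± 4.17 CPM), the mitotic kinesin KIF14 (69.3 ± 9.95 against 99.6 ± 18.1 CPM) and the viral RNA sensor IFIH1 (98.6 ± 28.6 against 150 ± 28.8 CPM). LTB, which encodes lymphotoxin beta, stood at 8.81, 11.4 and 22.1 CPM in the lowest, median and highest untreated mouse and 15.9, 24.2 and 101 CPM in maraviroc mice. TWIST1, a transcription factor of mesenchymal cells, stood at 0, 8.62 and 25.9 CPM and at 7.67, 31.4 and 90.8 CPM. Each of these 5 had an edgeR adjusted p of 0.999, and so did not pass. LTB and TWIST1 are typical of lymphocytes and of mesenchymal and carcinoma cells. The cells were sorted for human CD45, and the rule limited keratin, T cell and NK cell UMIs. What part lymphocytes or carcinoma cells had in these levels was not tested.

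With maraviroc, the paper reports lower TREM2, GPNMB, TFRC and FABP5 and higher IL1B over all myeloid cells of the tumors. Cycling macrophages are only a part of those cells, so the values here are of an unlike set. In them none of these genes passed, nor did CXCL10, which the paper names as a marker of a macrophage cluster (edgeR adjusted p of 0.999 for each). IL1B stood at 141, 229 and 960 CPM in the lowest, median and highest untreated mouse and 105, 241 and 282 CPM in maraviroc mice, with log2 fold changes of -1.40 in reaction 1 and 0.35 in reaction 2. The mouse at 960 CPM was in reaction 1, and without it the log2 fold change over both reactions went from -0.65 to -0.11. TREM2 (90.0 ± 35.8 against 64.8 ± 30.3 CPM), GPNMB (116 ± 31.3 against 111 ± 22.5), the transferrin receptor TFRC (372 ± 121 against 447 ± 140), the fatty acid binding protein FABP5 (231 ± 94.5 against 173 ± 24.5) and CXCL10 (553 ± 456 against 678 ± 365) overlapped between the groups. The markers TOP2A (433 ± 64.7 against 516 ± 141 CPM), MKI67 (499 ± 42.2 against 549 ± 71.2), ASPM (156 ± 34.7 against 193 ± 42.6), ANLN (115 ± 10.8 against 143 ± 35.6) and C1QA (1697 ± 343 against 1746 ± 311) did so too.

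**Figure D5:**
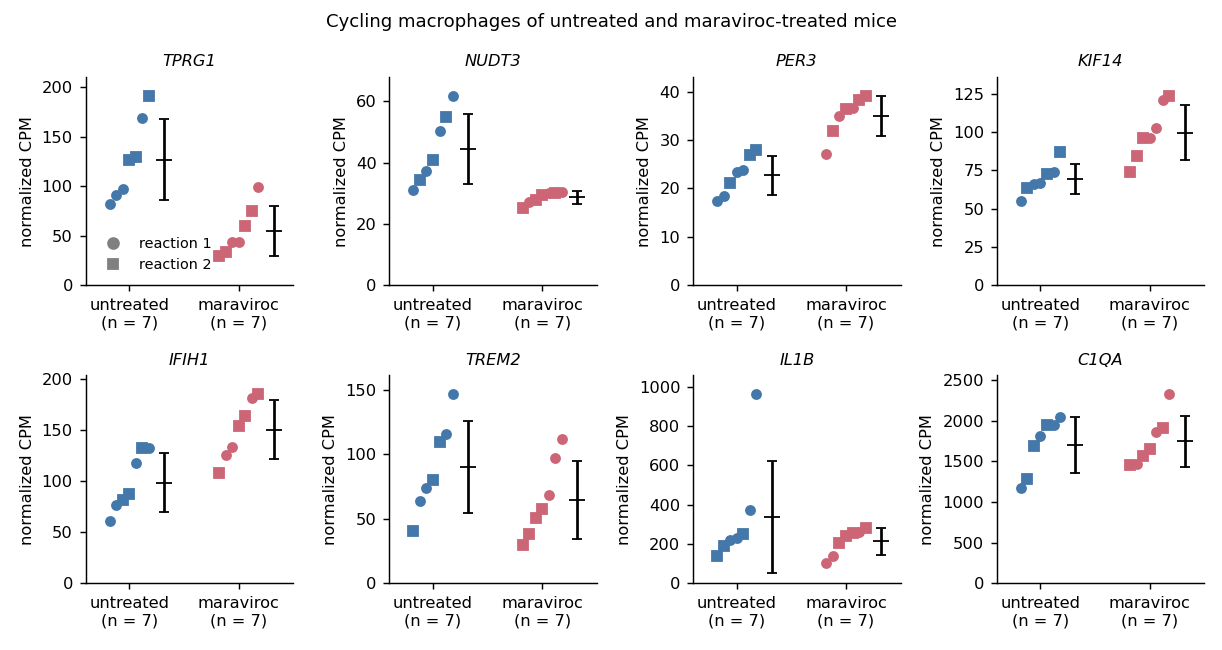
Normalized CPM of 8 genes in cycling macrophages of each untreated (blue) and maraviroc (red) mouse; circles are reaction 1 and squares reaction 2, with the mean ± SD of 7 mice. TPRG1 lies between 82.3 and 191 in untreated and between 29.7 and 99.1 in maraviroc mice, the ranges of PER3 and IFIH1 overlap in part, and TREM2, IL1B and C1QA overlap broadly.

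No gene of any list was called. Over the 8942 genes the median log2 fold change was -0.01 and 4249 were higher with maraviroc. Of 37 spindle and kinetochore genes 32 were higher, with a median of 0.17, and the median was 0.37 in reaction 1 and 0.03 in reaction 2. Cytokinesis genes were higher in 10 of 10 cases (median 0.22, with 0.55 in reaction 1 and -0.02 in reaction 2) and replication histones in 28 of 31 (median 0.23, with 0.43 and 0.07). DNA replication genes had a median of 0.03. Of the 12 monocyte genes tested 0 were higher, with a median of -0.12 that was -0.41 in reaction 1 and 0.20 in reaction 2, and inflammatory genes had medians of -0.20, -0.45 and 0.40 in the same order. Interferon response genes were higher in 15 of 15 cases with a median of 0.19, 0.06 in reaction 1 and 0.46 in reaction 2. Genes of a list move together from mouse to mouse, so these counts are not independent evidence of a change.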

How the data were processed

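The authors deposited UMI counts per gene and hashtag for each of 2 reactions, made with Cell Ranger 9.0.1 on GRCh38 and without normalization; the processing notes also name Seurat 5.1.0. Hashtags were assigned here by the share of the top hashtag. The members and gene lists were chosen with earlier results of these data known. For each mouse the counts of its cells were added up and divided by their total (CPM). Treatment was tested over the 14 mice with edgeR 4.0.16 in R 4.3.3 (quasi-likelihood F test on TMM-normalized counts of genes passing filterByExpr; Benjamini-Hochberg threshold 0.05), and shares by exact permutation, with gene levels and S parts taken from mice with at least 10 cycling cells. The edgeR and DESeq2 fits were tested on simulated data, and the permutation on a constructed set of values. DESeq2 1.42.0 and the alternatives listed in the closing section were also run.

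Genes were named by rule: the rule genes and markers, up to 4 genes per list with the largest mean ratios, the 10 highest and 10 lowest ratios with the same sign in every mouse, for treatment the 5 lowest p in each direction, and the genes the study names. MRC1, CSF1R, SPP1, FOLR2, LYVE1, S100A12, SLC2A1, CD14, GNLY and the further genes given by phase were added after their values were seen. Replicates are mice. The hashtag samples were used through the hashtag counts of the same matrices. Promoter sequences of human genes were not used here. A gene that the rule names is not reported here.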

Additional observations from a re-analysis of the deposited data

Results flagged for a closer look

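Among 56 groups of 7 mice examined for a mouse far from the others, 4 were marked, and chance marks about 1 in 20 groups, or 2.8 of 56. The ratio of median UMIs of cycling to non-cycling macrophages was 1.91 in untreated mouse 3, where the other untreated mice lay between 1.24 and 1.53. The same ratio was 1.79 in maraviroc mouse 2, with the other maraviroc mice between 1.13 and 1.39. LTB in cycling macrophages reached 101 normalized CPM in maraviroc mouse 2, against 15.9 to 32.4 in the other maraviroc mice. IL1B reached 960 normalized CPM in untreated mouse 2, against 141 to 375 in the other untreated mice. No explanation for these values was tested.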

How the results depend on the processing

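For the share of cycling macrophages, 13 alternatives gave exact permutation p between 0.00991 and 0.921, and for the S part 11 gave p between 0.0667 and 0.793. The share difference of -0.96 points turned to 1.31 in reaction 1 alone. It turned to 3.29 (exact permutation p = 0.201) without cells that held any UMI of the T and NK cell lists other than CD4 and FCGR3A. That setting left 1 to 22 cycling cells of 61 to 148 macrophages per mouse. Without maraviroc mouse 6, which had 1 such cell, it was 5.21 (exact permutation p = 0.00991). The S part difference of -1.36 points was -11.9 in that setting over the 2 untreated and 4 maraviroc mice with at least 10 such cells (p = 0.0667, the smallest that the exact permutation test allows there), and turned to 0.69 in reaction 2 alone; the cause was not tested. Leaving out each mouse in turn gave -1.91 to -0.24 points for the share, -2.46 to -0.34 points for the S part and 0 to 1 called genes. With the reaction as replicate block, the differences were -1.08 points (exact permutation p = 0.530) and -1.87 points (p = 0.393, exact permutation test) and 0 genes were called, as without it; the mice of the reactions are not paired. DESeq2 called 1 gene (TPRG1), and edgeR on all 23133 genes with at least 1 count called 3 (TPRG1, LTB and TWIST1). Without maraviroc replicate 1 edgeR called TPRG1. In the setting without lymphoid UMIs, over its 2 untreated and 4 maraviroc mice, edgeR called 1 of 3653 genes (NFKB1, log2 fold change -2.56). The number of genes lower in cycling macrophages was 14 in place of 60 with macrophage genes at 0.3% of UMIs or more, 45 with the gene limit at 8000, where EREG and IL1B no longer passed, and 79 in reaction 1 alone. Of 598 log2 fold changes over 22 genes, 580 kept their direction and their side of the threshold, and 5, of TPRG1, LTB and TWIST1, passed it. The other 13, none of them called, changed sign. In reaction 1 alone TFRC was at -0.17 and CXCL10 at -0.29, and in reaction 2 alone IL1B was at 0.35, GPNMB at 0.11 and FABP5 at 0.084. In the 2 untreated and 4 maraviroc mice of the setting without lymphoid UMIs, TREM2 was at 0.38, FABP5 at 0.27 and C1QA at -0.15. With each mouse left out in turn, GPNMB ranged from -0.16 to 0.061 and C1QA from -0.039 to 0.091. Limits: each mouse gave 49 to 123 cells, the reactions differed in depth, the gene limit removed 327 cycling macrophages, and no doublet caller was run. The settings on reaction, macrophage level, gene limit and hashtag purity for the comparison of classes, the gene limit with the replicate block, and the lymphoid setting without maraviroc mouse 6, were chosen after seeing the data. The gene limit with the block called 0 of 9957 genes.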
